A study of Homo sapiens with 12 samples.

Results

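Levels of 10 heat shock chaperone genes were followed in SCC-15, an established human cell line of oral squamous cell carcinoma. The genes were HSPA1A, HSPA1B, DNAJB1, HSPH1, HSP90AA1, HSP90AB1, HSPB1, HSPD1, HSPE1 and BAG3, taken by symbol from the 61044 rows of the count table. All 10 passed the filter on low counts, which left 17532 genes for testing. The cells carried a negative-control hairpin (NC) or a hairpin RNA directed at FMOD, of which there were 3 (called shRNA1, shRNA2, shRNA3), and RNA was taken after 48 hours. FMOD encodes fibromodulin, a small proteoglycan of the extracellular matrix, and the question put was how its loss alters the transcriptome. Each of the 4 groups had 3 libraries, and the hairpin groups shared the same NC libraries. Whether a group was a clone or a mixed population, and whether its libraries came from separate cultures, is not given in the sources used here, so p-values measure only the spread between these libraries.

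Heat shock chaperones bind unfolded proteins and help them to fold, and they keep signalling proteins of cancer cells stable. HSP70 binds short exposed stretches of a client, a J-domain partner delivers the client, nucleotide exchange factors release it, and HSP90 finishes the folding of many kinases and receptors. Under protein stress the transcription factor HSF1 forms trimers and binds heat shock elements, which are alternating repeats of GAA and its complement, upstream of many of these genes.

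Library totals lay between 17287017 and 19567289 counts, and each count of the 10 genes was between 1016 and 35803, so that counting error (exact 95% interval) was at most 6.20% of a value. FMOD, the targeted gene, had 2 to 3 counts in the NC libraries and 0 in all 9 hairpin libraries, which is too few to check the depletion. A zero allowed a level of up to 0.174 CPM (the count relative to the library total, before scaling). The 7 epithelial markers looked at were at 1 CPM or more in every library, and their sum was 1995 to 2156 CPM in NC, 1196 to 1564 with shRNA1, 1488 to 1538 with shRNA2 and 1265 to 1959 with shRNA3. Summed markers of other cell types also moved with the groups. In NC and with shRNA1, shRNA2 and shRNA3 they were at 56.7 to 59.6, 15.6 to 21.7, 44.2 to 48.2 and 32.9 to 86.7 CPM for 7 fibroblast genes (COL3A1 at 3 counts or fewer throughout), at 17.6 to 23.1, 3.88 to 5.88, 6.87 to 8.46 and 8.68 to 13.3 for 3 endothelial genes, and at 3.65 to 5.02, 0.465 to 1.50, 1.80 to 2.49 and 0.729 to 1.84 for 4 leukocyte genes. Their part in the results was not tested. The shRNA3 libraries did not resemble each other: libraries 1 and 2 correlated at 0.995 across genes, but library 3 correlated with them at 0.919 and 0.916, whereas replicates of the other groups correlated at 0.983 or more. Whether all 3 carry the right label was not tested, so a mean or fold change of shRNA3 is one over unlike libraries. All hairpin groups stood far from NC, with 57.4% of tested genes called for shRNA1, 53.0% for shRNA2 and 53.9% for shRNA3 in either direction, and 12 genes at 50 CPM or more in every NC library had at most 3 counts in every hairpin library. Whether NC and hairpin cells came from the same stock of the line was not tested, and a difference between stocks cannot be told apart from one between hairpins and NC. In bulk RNA, more cells with a transcript and more transcript per cell cannot be told apart. Values are CPM scaled by the trimmed mean of M values (TMM) unless stated.

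The chaperones were higher with the hairpins far more often than lower. In edgeR's quasi-likelihood test at an adjusted p under 0.05, 6 of the 10 genes rose with shRNA1, where 26.8% of all tested genes rose. With shRNA2, 6 of 10 rose, against 24.6% of all genes, and with shRNA3 8 of 10 rose, against 26.4%. None of the 10 fell with any hairpin, while 30.6%, 28.4% and 27.6% of all genes fell with shRNA1, shRNA2 and shRNA3. HSPA1A, HSPH1, HSP90AA1 and HSPE1 rose with all 3 hairpins, 4 of 10 genes where 16.0% of all genes did so, while 19.7% of all genes and 0 of the 10 fell with all 3. In 6 of the 10 (those 4 with HSPA1B and HSPD1) all 9 hairpin libraries lay above all 3 NC libraries, which held for 19.0% of all genes, and in 0 of the 10 did they lie below, which held for 25.8%. On CPM of the raw total, not scaled by TMM, 3 of the 10 (HSPA1A, HSPH1 and HSPE1) had all hairpin libraries above NC, where 14.1% of all genes did. Taken by hairpin, the libraries did not overlap with NC and were higher for 7 of 10 genes with shRNA1, 8 with shRNA2 and 8 with shRNA3, where 35.7%, 38.2% and 25.5% of all genes were. They were lower for 1 (HSPB1), 1 (DNAJB1) and 0 of 10, where 38.6%, 41.4% and 32.0% were. On CPM of the raw total 5, 8 and 5 of the 10 were higher and 1, 2 and 0 lower. The shares of all genes by hairpin were not computed on that scale, so these counts cannot be set against them. The median log2 fold change of the 10 genes was 0.68, 0.67 and 1.003 for shRNA1, shRNA2 and shRNA3, and that of all tested genes was -0.02, -0.05 and -0.03. With shRNA3 libraries 1 and 2 left out, only library 3 stood for shRNA3, and log2 fold changes moved both ways, HSPA1B to 0.26 and HSPD1 to 0.65. Under scaling by total counts in place of TMM, 5 of the 10 rose with shRNA3. Of the 17532 tested genes 3214 then rose with shRNA3, against 4622 under TMM. Total counts also moved the median of all genes by -0.09, -0.13 and -0.32 for the 3 hairpins. Of all genes called for shRNA3, 48.9% were higher under TMM and 35.1% under total counts.

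**Figure D1:**
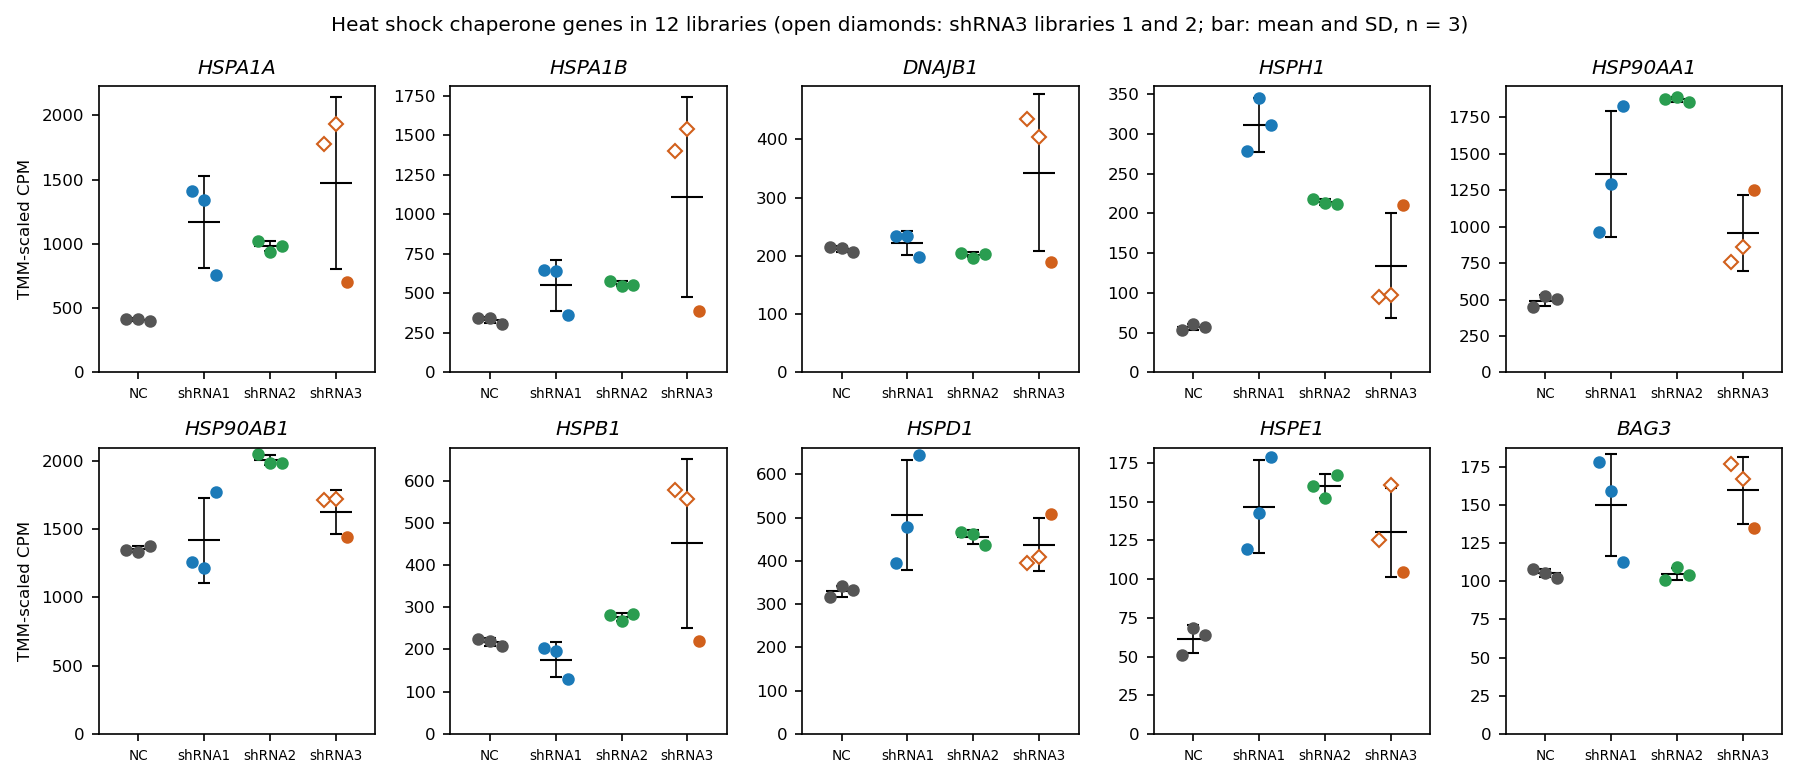
CPM of each of the 10 genes in the 12 libraries, by group, with the mean and SD of 3 libraries as black bars and shRNA3 libraries 1 and 2 as open diamonds. The diamonds lie apart from shRNA3 library 3 in most panels, above it for HSPA1A, HSPA1B, DNAJB1 and HSPB1 and below it for HSPH1 and HSP90AA1.

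HSPA1A and HSPA1B, the stress-inducible HSP70 genes, lie beside each other on chromosome 6 (GRCh38, chr6:31815464-31817946 and chr6:31827735-31830255, plus strand). Their coding sequences of 1926 bases differ at 4 bases, and 69.9% of the 100-base windows of the HSPA1A transcript occur in HSPA1B, so the split of reads between them depends on the authors' counting. HSPA1B also overlaps AL671762.1 on its own strand. The stretches before their starts are shown because both carry a heat shock element of 2 units at nearly the same distance, 106 and 105 bases before the RefSeq start (capitals; GRCh38.p14, chr6:31815377-31815463 and chr6:31827573-31827665, plus strand).
HSPA1A: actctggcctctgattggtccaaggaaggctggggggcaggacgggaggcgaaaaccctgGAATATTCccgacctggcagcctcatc
HSPA1B: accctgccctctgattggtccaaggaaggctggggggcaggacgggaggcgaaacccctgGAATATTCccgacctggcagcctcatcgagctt
Over the 250 bases before their starts the genes matched at 235 of 251 aligned positions (93.6%).

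HSPA1A was at 418, 416 and 399 CPM in NC, at 1408, 1338 and 759 with shRNA1, at 1020, 940 and 983 with shRNA2, and at 1775, 1935 and 705 with shRNA3. All 9 hairpin libraries lay above all NC libraries, and the third library was the lowest of the shRNA1 and of the shRNA3 group. The fold change was 2.84 for shRNA1 (log2 1.51 ± 0.33 SE, adjusted p = 0.00251, edgeR quasi-likelihood, n = 3 against 3), 2.39 for shRNA2 (log2 1.26 ± 0.33, adjusted p = 0.00765) and 3.58 for shRNA3 (log2 1.84 ± 0.34, adjusted p = 0.000791). HSPA1B was at 341, 341 and 309 CPM in NC, at 647, 643 and 364 with shRNA1, at 580, 548 and 555 with shRNA2, and at 1402, 1539 and 387 with shRNA3. Here too no hairpin library reached down to NC on the TMM scale, although shRNA1 library 3 and shRNA3 library 3 came close to it, and on CPM of the raw total shRNA1 library 3 (375) fell within NC (341 to 378). HSPA1B rose with shRNA3 (log2 1.75 ± 0.41, adjusted p = 0.00369, edgeR quasi-likelihood). For shRNA1 (log2 0.74 ± 0.40, adjusted p = 0.134) and shRNA2 (log2 0.76 ± 0.40, adjusted p = 0.128) it did not pass the test, in which all groups share 1 spread per gene. Without shRNA3 library 3 both passed, at log2 0.75 and 0.77, and without shRNA3 libraries 1 and 2 the shRNA3 value was 0.26 and did not pass. With the counts of both genes summed, HSP70 rose with shRNA1 (log2 1.21 ± 0.36, adjusted p = 0.0135), shRNA2 (log2 1.06 ± 0.36, adjusted p = 0.0278) and shRNA3 (log2 1.80 ± 0.37, adjusted p = 0.00162).

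DNAJB1 encodes the J-domain partner of inducible HSP70 (chr19:14514770-14529770, minus strand, overlapped on the other strand by TECR, which lay between 68.5 and 237 CPM). It was at 216, 213 and 207 CPM in NC, at 234, 234 and 198 with shRNA1 and at 205, 197 and 204 with shRNA2. The shRNA3 libraries were at 436, 404 and 189 CPM. Libraries 1 and 2 of shRNA3 alone stood out, and shRNA3 library 3 was below every NC library. DNAJB1 rose with shRNA3 (log2 0.69 ± 0.24, adjusted p = 0.0315, edgeR quasi-likelihood), and values for shRNA1 and shRNA2 were log2 0.07 ± 0.24 and -0.07 ± 0.24. The shRNA3 call did not hold without any single NC library (log2 0.67 to 0.70) or without shRNA3 library 1 or 2 (0.55 and 0.62), and without both of these the value was -0.14. It did not hold under total-count scaling (0.29) or with only the libraries of the 2 groups (0.77) either. The windows of its other RefSeq starts have no heat shock element, but before a RefSeq start within the gene lie 2 of 2 units (capitals). They are shown for comparison with the element of its partners HSPA1A and HSPA1B (GRCh38.p14, chr19:14518421-14518534, minus strand).
DNAJB1: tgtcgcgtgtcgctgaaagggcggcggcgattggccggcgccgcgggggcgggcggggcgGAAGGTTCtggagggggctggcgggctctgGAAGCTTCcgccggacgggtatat

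HSPH1 encodes HSP110, an exchange factor of HSP70 and a chaperone that keeps aggregates soluble (chr13:31134974-31162388, minus strand). It was at 53.9, 61.2 and 56.6 CPM in NC, at 278, 346 and 311 with shRNA1, at 219, 214 and 211 with shRNA2, and at 94.6, 97.2 and 210 with shRNA3. Every hairpin library was above NC and the shRNA1 libraries were the highest. HSPH1 had the largest rise of the 10 genes with shRNA1, 5.44-fold (log2 2.44 ± 0.27, adjusted p = 2.17e-05, edgeR quasi-likelihood), and rose 3.75-fold with shRNA2 (log2 1.91 ± 0.27, adjusted p = 0.000121) and 2.34-fold with shRNA3 (log2 1.23 ± 0.26, adjusted p = 0.00215). Its pattern over the shRNA3 libraries was the opposite of that of HSPA1A, with library 3 at 2.19 times the mean of libraries 1 and 2. BAG3, a further exchange factor of HSP70 that links it to autophagy (chr10:119651370-119677819, plus strand), was at 108, 106 and 102 CPM in NC, at 178, 159 and 113 with shRNA1, at 101, 109 and 104 with shRNA2, and at 177, 167 and 135 with shRNA3. On the TMM scale the shRNA2 libraries overlapped NC and the other hairpin libraries were above it. On CPM of the raw total, shRNA1 library 3 (116.1) fell within NC (112.9 to 117.9), and the shRNA2 libraries (98.73 to 111.8) lay below NC. BAG3 rose with shRNA1 (log2 0.51 ± 0.17, adjusted p = 0.0211, edgeR quasi-likelihood) and shRNA3 (log2 0.60 ± 0.17, adjusted p = 0.00987). The first call did not hold without NC library 2 or 3 (log2 0.51 and 0.49) or without shRNA1 library 1 or 2 (0.38 and 0.48), and the second did not hold without both shRNA3 libraries 1 and 2 (0.39) or under total-count scaling (0.24).

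HSP90AA1 and HSP90AB1 encode the inducible and the constitutive HSP90 of the cytosol (chr14:102080738-102139699, minus strand, overlapped on the other strand by WDR20 at 11.6 to 29.5 CPM, and chr6:44246166-44253888, plus strand). Both carry the full heat shock element of 3 units, GAANNTTCNNGAA on either strand, within 250 bases before a RefSeq start, which only 155 of 35116 such windows do (0.441%). The match in HSP90AA1 starts 88 bases before its downstream RefSeq start, inside an annotated exon (GRCh38.p14, chr14:102087104-102087132, minus strand), and the window of the upstream start has none. HSP90AB1 has matches at 165 and 112 bases before a downstream start (GRCh38.p14, chr6:44247718-44247865, plus strand), and the windows of its other RefSeq starts have none. Elements are in capitals, with a further element of 2 units in HSP90AA1.
HSP90AA1: TTCCGGAAGGTTCgggaggcTTCTGGAAa
HSP90AB1: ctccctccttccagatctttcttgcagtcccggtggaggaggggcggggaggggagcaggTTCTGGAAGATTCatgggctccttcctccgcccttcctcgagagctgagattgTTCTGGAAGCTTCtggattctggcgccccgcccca
HSP90AA1 was at 448, 526 and 505 CPM in NC, at 965, 1293 and 1826 with shRNA1, at 1875, 1892 and 1855 with shRNA2, and at 755, 862 and 1248 with shRNA3. All hairpin libraries lay above NC on the TMM scale (on CPM of the raw total shRNA3 library 1, at 581, fell within the NC range of 490 to 583), the shRNA2 libraries within a narrow band and the shRNA1 libraries widely spread. HSP90AA1 rose 2.76-fold with shRNA1 (log2 1.47 ± 0.24, adjusted p = 0.000367, edgeR quasi-likelihood), 3.80-fold with shRNA2 (log2 1.93 ± 0.25, adjusted p = 6.14e-05) and 1.94-fold with shRNA3 (log2 0.95 ± 0.24, adjusted p = 0.00570). Under total-count scaling the shRNA3 value was 0.67 and did not pass.

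HSP90AB1 moved less. It was at 1344, 1335 and 1375 CPM in NC, at 1260, 1215 and 1772 with shRNA1, at 2049, 1985 and 1983 with shRNA2, and at 1713, 1719 and 1441 with shRNA3. The shRNA2 and shRNA3 libraries were above NC, while shRNA1 libraries 1 and 2 were below it and library 3 above. On CPM of the raw total, shRNA3 libraries 1 and 2 (1320.0 and 1364) were below NC (1470 to 1518). HSP90AB1 rose with shRNA2 (log2 0.57 ± 0.17, adjusted p = 0.0128, edgeR quasi-likelihood), with values of log2 0.07 ± 0.17 for shRNA1 and 0.27 ± 0.17 for shRNA3 that did not pass. Without shRNA3 library 3 the shRNA3 value was 0.34 and passed. NC cells held 0.334 to 0.394 HSP90AA1 counts per HSP90AB1 count. This ratio was 0.766 to 1.06 in the shRNA1 and shRNA2 libraries and 0.866 in shRNA3 library 3, and 0.440 and 0.501 in shRNA3 libraries 1 and 2.

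HSPB1 encodes the small heat shock protein HSP27, which holds unfolded proteins and binds actin (chr7:76302544-76304295, plus strand). It was at 225, 219 and 208 CPM in NC, at 204, 196 and 129 with shRNA1, at 281, 267 and 283 with shRNA2, and at 579, 555 and 220 with shRNA3. The shRNA1 libraries lay below NC, the shRNA2 libraries above it, and shRNA3 library 3 within it. HSPB1 rose with shRNA3 (log2 1.05 ± 0.30, adjusted p = 0.0118, edgeR quasi-likelihood), and was at log2 -0.30 ± 0.30 for shRNA1 and 0.35 ± 0.30 for shRNA2. Without shRNA3 libraries 1 and 2 the shRNA3 value was 0.04 and did not pass, and without shRNA3 library 3 the shRNA2 value was 0.36 and passed. HSPB1 carries a heat shock element of 2 units 182 bases before its RefSeq start (capitals), shown beside the others as the shorter form of the motif (GRCh38.p14, chr7:76302431-76302523, plus strand).
HSPB1: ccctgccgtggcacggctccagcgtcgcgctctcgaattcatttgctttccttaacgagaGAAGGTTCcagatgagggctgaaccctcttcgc

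HSPD1 (HSP60) and HSPE1 (HSP10) encode the barrel and the lid of the mitochondrial folding chamber and are transcribed away from each other out of a shared region of chromosome 2 (chr2:197486581-197516737, minus strand, and chr2:197499994-197503457, plus strand). The annotated genes overlap each other. HSPD1 is also overlapped on the other strand by MOB4 (24.05 to 61.62 CPM) and HSPE1-MOB4 (0 to 6.06 CPM), and HSPE1 shares its strand with HSPE1-MOB4. Reads from opposite strands therefore cannot be told apart unless strand was counted. HSPD1 has 2 overlapping heat shock elements of 3 units at 245 and 240 bases before its downstream RefSeq start, inside an annotated exon. The window of its upstream RefSeq start has none. The stretch lies within both annotated genes (capitals; GRCh38.p14, chr2:197500062-197500090, minus strand).
HSPD1: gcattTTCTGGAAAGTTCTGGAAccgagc
HSPD1 was at 317, 341 and 332 CPM in NC, at 394, 479 and 646 with shRNA1, at 467, 462 and 436 with shRNA2, and at 395, 409 and 508 with shRNA3. HSPE1 was at 51.3, 68.6 and 64.0 CPM in NC, at 120, 143 and 179 with shRNA1, at 160, 153 and 168 with shRNA2, and at 125, 161 and 104 with shRNA3. For both genes every hairpin library was above every NC library on the TMM scale. On CPM of the raw total this held for HSPE1, but HSPD1 in shRNA3 libraries 1 and 2 (304 and 325) lay below NC (346 to 378). HSPE1 rose 2.40-fold with shRNA1 (log2 1.26 ± 0.19, adjusted p = 0.000217, edgeR quasi-likelihood), 2.61-fold with shRNA2 (log2 1.38 ± 0.19, adjusted p = 0.000123) and 2.12-fold with shRNA3 (log2 1.09 ± 0.19, adjusted p = 0.000646). HSPD1 rose with shRNA1 (log2 0.62 ± 0.18, adjusted p = 0.0112) and shRNA2 (log2 0.46 ± 0.18, adjusted p = 0.0454), and was at log2 0.41 ± 0.18 with shRNA3 (adjusted p = 0.0728). The shRNA2 call did not hold without any single NC or shRNA2 library or without shRNA1 library 2 (log2 0.44 to 0.52). It was also lost under DESeq2 size factors (0.42) and a filter of at least 50 counts on average (0.38). The shRNA1 and shRNA2 calls did not hold under total-count scaling (0.53 and 0.33). The shRNA3 value passed without shRNA1 library 1 (0.41), shRNA1 library 3 (0.41) or shRNA3 library 1 (0.53), and in DESeq2's Wald test (0.40). With library 3 as the only shRNA3 library it was 0.65. HSPD1 counts per HSPE1 count were 4.97 to 6.17 in NC, 2.54 to 3.61 in 8 hairpin libraries and 4.86 in shRNA3 library 3.

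**Figure D2:**
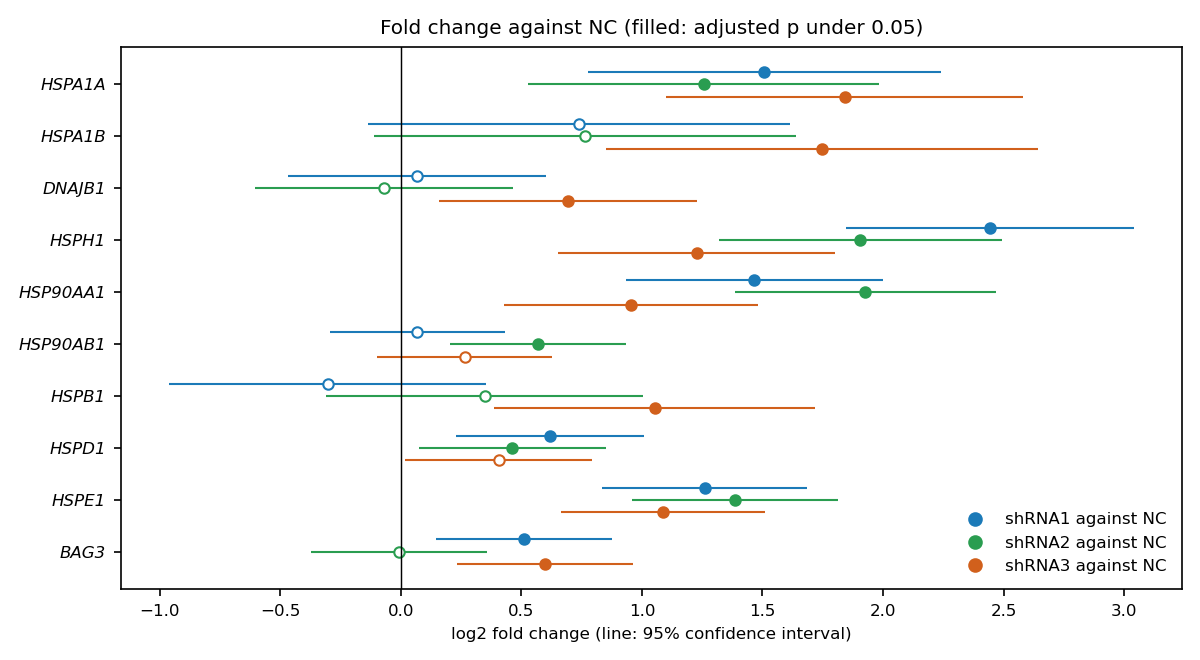
Log2 fold change of each gene against NC for the 3 hairpins, with 95% confidence intervals from edgeR, filled where the adjusted p was under 0.05. HSPA1A, HSPH1, HSP90AA1 and HSPE1 are filled for all 3 hairpins, and no filled point lies below 0.

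In all, 7 of the 10 genes had an element of 2 or 3 units in a window before a RefSeq start, 7 of 16 windows, against 11.6% of all windows, and 3 genes had the element of 3 units. No match was found in the windows of HSPH1, HSPE1 and BAG3, which says only that these letters are not in those 250 bases. Per kilobase of the longest coding transcript, HSP90AB1 had the highest mean level in NC, 505 ± 7.91 CPM per kb (SD, n = 3), followed by HSPB1 at 239 ± 9.54 and HSPA1A at 166 ± 4.22. HSP90AA1, HSPD1 and HSPA1B came next at 140 ± 11.4, 134 ± 5.05 and 131 ± 7.45 CPM per kb and could not be ordered within their spread. DNAJB1 followed at 93.6 ± 2.10, HSPE1 at 64.5 ± 9.44 and BAG3 at 40.9 ± 1.09, and HSPH1 was the lowest at 11.03 ± 0.705. On the TMM scale the 10 genes summed to 3522 to 3626 CPM in NC, 5688 to 6296 with shRNA1 and 6766 to 6957 with shRNA2. The shRNA3 libraries were at 7450, 7848 and 5146 CPM, all above NC. The order of the hairpins depended on the scaling. Of the raw counts, the 10 genes held 0.39% to 0.40% in NC, 0.59% to 0.65% with shRNA1 and 0.68% to 0.69% with shRNA2. The shRNA3 libraries then held 0.57%, 0.62% and 0.55%, above NC but below the shRNA2 libraries.

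Setting the shRNA3 libraries apart showed opposite orders among the chaperones. On the TMM scale, libraries 1 and 2 of shRNA3 lay above all 6 shRNA1 and shRNA2 libraries for HSPA1A, HSPA1B, DNAJB1 and HSPB1, and below all 6 for HSPH1 and HSP90AA1. Their mean was 2.63 times the value of library 3 for HSPA1A, 3.80 times for HSPA1B, 2.23 times for DNAJB1 and 2.58 times for HSPB1. For HSPH1 and HSP90AA1 it was 0.456 and 0.648 times that of library 3. Library 3 lay within the range of the 6 other libraries for HSPA1B, HSP90AA1, HSP90AB1, HSPB1, HSPD1 and BAG3, and below them for HSPA1A, DNAJB1, HSPH1 and HSPE1. For HSPH1 the gap was small, 210.1 against 211.3 CPM. On CPM of the raw total, library 3 lay within that range for HSPH1 (223.1, against 213.8 to 364.5). For DNAJB1 it was then level with shRNA2 library 1 (200.3). Libraries 1 and 2 also had the lowest TMM factors, 0.771 and 0.795, against 0.979 to 1.11 in the other 10 libraries. On CPM of the raw total they still lay above all 6 other libraries for HSPA1B, DNAJB1 and HSPB1 and below them for HSPH1 and HSP90AA1. For HSPA1A, shRNA3 library 1 (1367) then lay below shRNA1 libraries 1 and 2 (1455 and 1411), and HSPD1 joined the genes below.

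**Figure D3:**
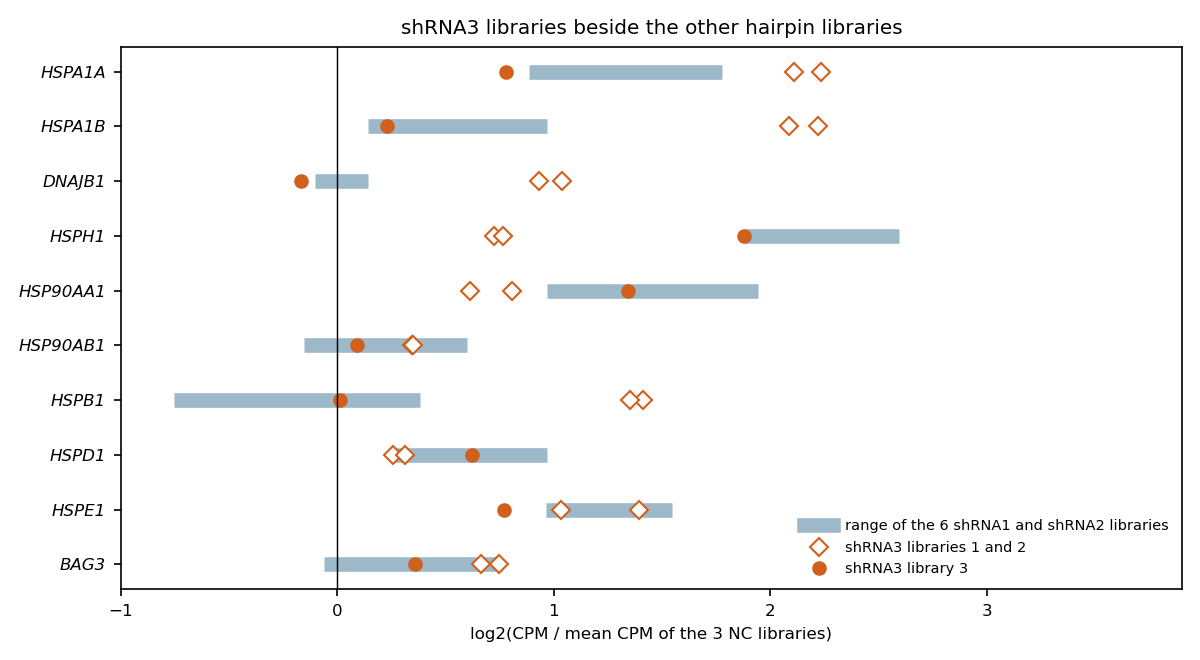
Log2 ratio of CPM to the NC mean in shRNA3 libraries 1 and 2 (open diamonds) and 3 (filled circles), over the range of the 6 shRNA1 and shRNA2 libraries (bars). On this TMM scale the diamonds lie right of the bars for HSPA1A, HSPA1B, DNAJB1 and HSPB1 and left of them for HSPH1 and HSP90AA1.

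The hairpins were also compared with each other, in the same model, so that the NC libraries entered the shared spread. Between shRNA1 and shRNA2, 0 of the 10 genes were called by edgeR's quasi-likelihood test, where 12.3% of all genes were (5.78% higher and 6.53% lower with shRNA1). At an unadjusted p under 0.05 there were 2, HSP90AB1 and BAG3, and DESeq2's Wald test also called 2. Between shRNA1 and shRNA3, 2 of the 10 were called, against 30.0% of all genes. HSPH1 was 2.32-fold higher with shRNA1 than with shRNA3 (log2 1.22, 95% interval 0.64 to 1.79, adjusted p = 0.00972), and HSPB1 was 2.56-fold lower (log2 -1.36, interval -2.02 to -0.69, adjusted p = 0.0111), where 11.9% of all genes were higher and 18.1% lower. Without shRNA3 libraries 1 and 2 the HSPB1 value was -0.33 and did not pass, and with only the libraries of these 2 groups neither call held (log2 1.21 for HSPH1 and -1.36 for HSPB1). Between shRNA2 and shRNA3, 2 of the 10 were called, against 8.34% of all genes. With shRNA2 there was higher HSP90AA1 (log2 0.97, interval 0.45 to 1.50, adjusted p = 0.0391) and lower BAG3 (log2 -0.61, interval -0.97 to -0.24, adjusted p = 0.0488), with 1.91% of all genes higher and 6.43% lower. These last calls did not hold without any single NC or shRNA2 library, shRNA1 library 2, or shRNA3 library 1 or 2 (log2 0.80 to 0.98 for HSP90AA1 and -0.63 to -0.56 for BAG3), and the BAG3 call did not hold without shRNA1 library 1 either (-0.60). Without both shRNA3 libraries 1 and 2 the values were 0.57 for HSP90AA1 and -0.38 for BAG3, and under total counts 1.12 and -0.38, and neither call held. Without shRNA3 library 3, 4, 6 and 7 genes were called in the comparisons of shRNA1 with shRNA2, shRNA1 with shRNA3 and shRNA2 with shRNA3. The shares of all genes in that fit were not computed, and those above come from all 12 libraries, so these counts cannot be set against them. For HSPA1A the intervals of the log2 differences were wide, from -0.47 to 0.97 between shRNA1 and shRNA2 and from -1.05 to 0.39 between shRNA1 and shRNA3.

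The share of HSP70 counts assigned to each gene also differed between groups, a pattern chosen after the values were seen. There were 1.23, 1.22 and 1.29 HSPA1A counts per HSPA1B count in NC, 2.18, 2.08 and 2.08 with shRNA1 and 1.76, 1.71 and 1.77 with shRNA2. The shRNA3 libraries had 1.27, 1.26 and 1.82. The ratios of shRNA1 and shRNA2 did not overlap with each other or with NC, and shRNA3 libraries 1 and 2 sat within the NC range while library 3 was above the shRNA2 libraries. Because most of both transcripts is identical, this ratio also carries how ambiguous reads were assigned, and its part was not tested.

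**Figure D4:**
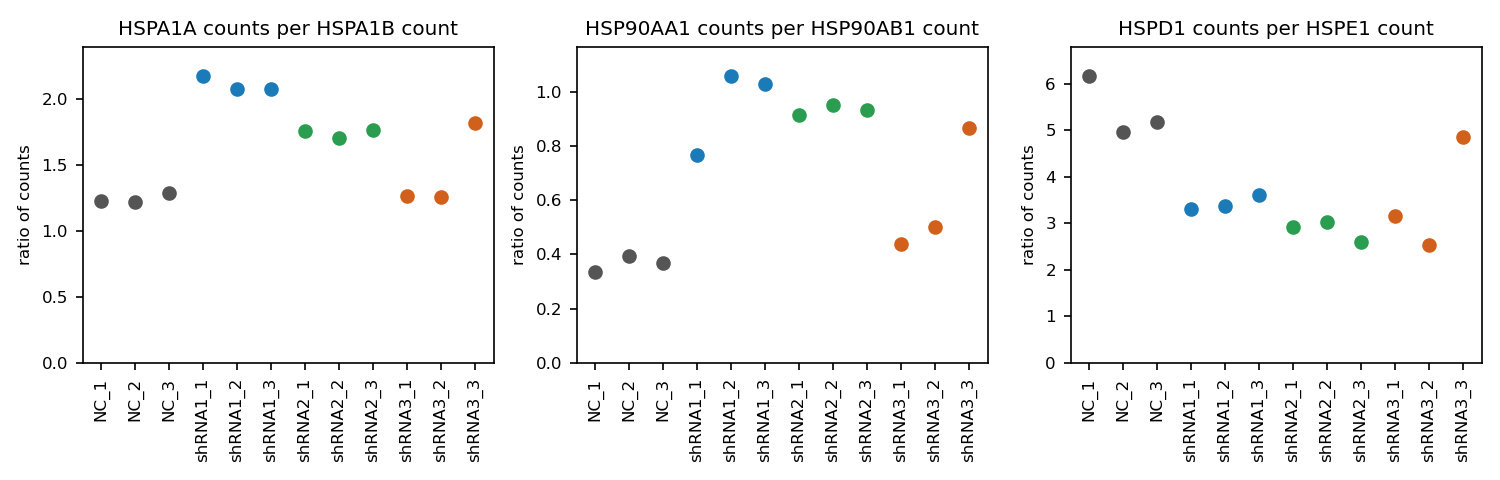
Counts of HSPA1A per HSPA1B, HSP90AA1 per HSP90AB1 and HSPD1 per HSPE1 in each of the 12 libraries, coloured by group, with axes from 0. In the first panel NC and shRNA3 libraries 1 and 2 lie between 1.22 and 1.29 and the other libraries between 1.71 and 2.18.

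Other chaperone genes were counted by list, to be read against the shares of all genes given above. Some genes stand in more than 1 list. All 8 subunits of CCT, the cytosolic folding chamber for actin and tubulin, rose with shRNA1 and with shRNA2, and 7 of 8 rose with shRNA3, with median log2 fold changes of 1.05, 1.13 and 0.73. CCT3 rose from 259 ± 16.5 CPM in NC (SD, n = 3) to 750 ± 75.4, 854 ± 33.0 and 517 ± 169 with the 3 hairpins, and CCT5 rose likewise (log2 1.37, 1.58 and 0.92). Of 9 other mitochondrial chaperones and proteases, 7 rose with each hairpin, and 0, 1 and 1 fell. Among them were the protease LONP1 (log2 0.92, 1.63 and 1.57) and GRPEL1, an exchange factor of mitochondrial HSP70 (log2 2.05, 1.06 and 0.90, the last without its call under total-count scaling). Of 10 HSP90 co-chaperones, 5, 7 and 4 rose and 1, 1 and 2 fell. FKBP4, which serves steroid receptors, rose in all 3 comparisons (log2 1.46, 1.88 and 1.53), as did CACYBP (log2 1.75, 1.59 and 1.19).

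The other HSP70, HSP110 and J-domain genes were mixed, with 5, 6 and 2 of 15 rising and 4, 4 and 2 falling. HSPA8, the constitutive HSP70, rose from 379 ± 34.7 CPM in NC to 1737 ± 364 with shRNA1, 1083 ± 37.7 with shRNA2 and 891 ± 231 with shRNA3. HSPA2 fell from 61.4 ± 1.88 CPM to 2.85 ± 1.28, 5.10 ± 0.883 and 7.002 ± 3.01, and DNAJA4, a J-domain gene, fell from 28.5 ± 3.91 CPM to less than 1 CPM in every hairpin library. HSPA14 rose too (log2 3.04, 1.88 and 1.38), but its shRNA3 call did not hold without NC library 1 or 2 (log2 1.29 and 1.28), nor without shRNA3 library 3 (0.55), under total counts (1.17), with only the libraries of the 2 groups (1.44) or with the replicate block (1.31). HSPA6, an HSP70 gene that is nearly silent without heat, stayed between 0.146 and 3.98 CPM and was not called with any hairpin, although it passed for shRNA1 without shRNA1 library 3 (log2 1.86) or shRNA3 library 3 (1.46), and for shRNA3 without shRNA3 library 3 (-2.74). Of 8 BAG and HSP70 cofactors, 5, 4 and 4 rose and 1, 0 and 0 fell. BAG1 rose most (log2 2.43, 2.51 and 1.93), and HSPBP1 rose less (log2 0.35, 1.14 and 0.77). The HSPBP1 call for shRNA1 was lost without NC library 1 or 3, shRNA1 library 3, or shRNA2 library 1 or 2 (log2 0.24 to 0.37). It was also lost under total counts, both other filters and the replicate block (0.26 to 0.38).

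HSF1, the heat shock transcription factor, was at 116, 106 and 102 CPM in NC, 163, 153 and 142 with shRNA1, 141, 136 and 143 with shRNA2, and 226, 220 and 160 with shRNA3. It rose with shRNA1 and shRNA3 (log2 0.50 and 0.90) and with shRNA2 (log2 0.37, adjusted p = 0.0458, edgeR quasi-likelihood), the last lost without any single NC or shRNA2 library or shRNA1 library 2 (log2 0.33 to 0.43), and also under DESeq2's Wald test or size factors, total counts and both other filters (0.24 to 0.41). Of the 4 heat shock factors and regulators, 2, 1 and 1 rose and 1, 1 and 0 fell. Only 2 of 8 other small heat shock protein genes were tested, of which 1 rose with shRNA1 and 0 with the others. Of 17 other heat-inducible genes, 8, 8 and 7 rose and 0, 2 and 2 fell, with medians of 0.54, 0.38 and 0.38.

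Chaperones of the endoplasmic reticulum went the other way with shRNA1 and shRNA2. Of 15, 7 fell and 2 rose with shRNA1, 12 fell and 1 rose with shRNA2, and 3 fell and 3 rose with shRNA3, with medians of -0.68, -0.85 and -0.17. The lectin chaperone CALR (log2 -1.35, -1.33 and -0.85) and the disulfide isomerase PDIA3 (log2 -1.01, -1.25 and -0.68) fell with all 3. Their shRNA3 calls did not hold with only the libraries of the 2 groups (log2 -0.77 and -0.61). HSPA5, the HSP70 of this compartment, was at 1687, 1390 and 1450 CPM in NC, 759, 682 and 612 with shRNA1 and 516, 504 and 511 with shRNA2. The shRNA3 libraries were at 3765, 3786 and 510 CPM, so that libraries 1 and 2 lay above NC and library 3 below it. HSPA5 fell with shRNA2 (log2 -1.56), a call lost without NC library 1 or any single shRNA2 library (-1.56 to -1.47). The values for shRNA1 and shRNA3 (log2 -1.14 and 0.83) passed without shRNA3 library 3 (-1.13 and 1.32). With library 3 as the only shRNA3 library the sign turned, and the shRNA3 value was -1.54. Chosen after their values were seen, UBB and HSP90B1 were also higher in shRNA3 libraries 1 and 2 than in library 3: UBB was at 1378 and 1471 CPM against 589 in library 3, and HSP90B1, the HSP90 of the endoplasmic reticulum, at 1634, 1594 and 551.

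**Figure D5:**
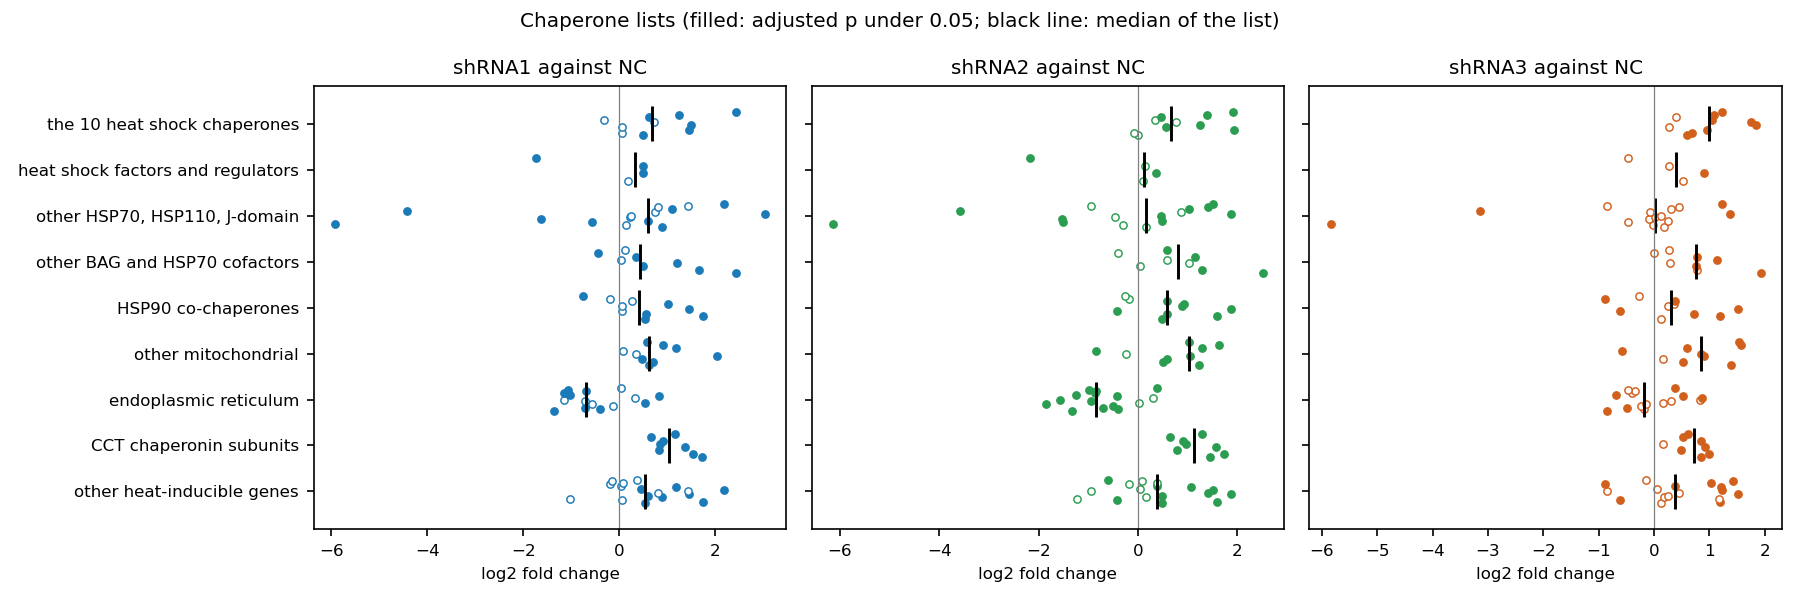
Log2 fold change against NC of each tested gene in 8 chaperone lists and the 10 genes, for the 3 hairpins, filled where the adjusted p was under 0.05, with black lines at list medians. All CCT points lie right of 0, and most endoplasmic reticulum points lie left of it for shRNA1 and shRNA2.

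The genes whose log2(CPM + 1) followed the chaperones most closely over the 12 libraries were looked up among 11604 genes by Pearson correlation, as a description, since the libraries fall into separate groups that all genes share. They were TRAPPC4, TNNI3 and ITGA5 for the sum of HSPA1A and HSPA1B (r = 0.991, 0.990 and 0.987), SRSF1, IPO5 and ANP32A for HSP90AA1 (0.987, 0.985 and 0.983) and CD81, MAPK3 and AKR1A1 for HSPB1 (0.984, 0.983 and 0.982).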

How the data were processed

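RNA from 12 libraries of SCC-15 cells (4 groups of 3) was analysed from a table of estimated counts per gene deposited by the authors without scaling. Fractions occurred in 13.8% of the values. The submitters' processing notes name HISAT2, HTSeq 0.11.2 and GRCh38. Their roles, the annotation and the use of strand are not given in the sources used here. Columns were matched to samples by title (columns not matched: 0).

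Estimated counts were rounded. Genes were kept by filterByExpr (minimum count 10, minimum total 15) and tested two-sided with edgeR 4.0.16 (R 4.3.3), TMM scaling and a quasi-likelihood F test in 1 model of the 4 groups (common BCV 0.289). Benjamini-Hochberg adjustment ran over all 17532 genes, with a threshold of 0.05. The standard error is the log2 fold change divided by the square root of F. The fit was tested on simulated data, but the outcome is not reported here and no result above rests on it. Positions and lengths come from GENCODE release 29, and upstream sequences from RefSeq (GRCh38.p14, all 10 genes matched). Motifs were searched on both strands in 250 bases before each start: GAANNTTCNNGAA (3 units, which contains the shorter motif), and GAANNTTC or TTCNNGAA (2 units). Stretches inside annotated exons were printed to at most 29 bases.

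The genes and lists were chosen with earlier results of these data known. Named genes were the 10, HSF1, HSPA8, HSPA6 and HSPA5, and from each list up to 2 rising and 2 falling genes called with all 3 hairpins with the largest smallest change. For the sum of HSPA1A and HSPA1B, HSP90AA1 and HSPB1, the 3 genes of at least 5 CPM with the highest correlation were named. Alternatives were DESeq2 1.42.0 size factors or Wald test, total counts, other filters and thresholds, fewer libraries, a replicate block and summed paralogs or pseudogenes. Positions of libraries on CPM of the raw total were added after seeing the data.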

Additional observations from a re-analysis of the deposited data

How the results depend on the processing

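Counts of the 10 genes called against NC stayed within 1.5 times of 6 for shRNA1 and 6 for shRNA2 under every alternative run. Calls were still lost within that bound. At a minimum of 2-fold, and also at an adjusted p under 0.01, HSPD1 and BAG3 lost their shRNA1 calls. HSPD1 and HSP90AB1 lost their shRNA2 calls under the same 2 settings. For shRNA3 the count of 8 became 5 at a minimum of 2-fold, 5 without shRNA3 libraries 1 and 2, and 5 under total counts. Leaving out single libraries gave 5 to 7, 5 to 8 and 7 to 9. Between shRNA1 and shRNA2 the count of 0 became 2 (DESeq2 Wald test), 4 (only the libraries of the 2 groups) and 1 (total counts), and 0 to 4 with single libraries left out. Between shRNA1 and shRNA3 the count of 2 became 4 (Wald test), 1 (adjusted p under 0.01), 1 (without shRNA3 libraries 1 and 2) and 0 (only 2 groups), and 2 to 6 with single libraries left out. Between shRNA2 and shRNA3 the count of 2 became 0 under an adjusted p under 0.01, at least 2-fold, without shRNA3 libraries 1 and 2, only 2 groups and total counts, 1 without a filter, and 0 to 7 with single libraries left out. Related genes called were 50, 55 and 39 of 75 tested, where 57.4%, 53.0% and 53.9% of all genes were called. They became 24, 28 and 14 at 2-fold, and 24 for shRNA3 with only 2 groups. With single libraries left out they lay at 41 to 62, 43 to 64 and 31 to 48. For most of the alternatives the shares of all genes were not computed, so counts under them cannot be set against such shares.

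Replicate numbers did not pair the libraries: deviations from group means correlated at -0.0107 on average for 18 pairs of the same number and 0.00443 for 36 pairs of different numbers, and 2 of 12 libraries correlated best with their own number. With the replicate block, 1 of the 10 genes was called between shRNA2 and shRNA3.

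Signs changed only in these cases. Without shRNA3 libraries 1 and 2, the log2 differences of shRNA1 against shRNA3 became 0.14 (BAG3), 0.22 (DNAJB1), 0.71 (HSPA1A), 0.50 (HSPA1B) and -0.0194 (HSPD1), and those of shRNA2 against shRNA3 0.0853 (DNAJB1), 0.47 (HSPA1A), 0.52 (HSPA1B), 0.32 (HSPB1) and -0.17 (HSPD1). Against NC, shRNA3 became -0.14 (DNAJB1), -1.54 (HSPA5) and 0.36 (HSPA6). Under total counts, values became -0.0183 (DNAJB1) and -0.0201 (HSP90AB1) for shRNA1 and -0.0847 (HSP90AB1) for shRNA3 against NC, 0.18 (BAG3) and 0.0646 (HSP90AB1) for shRNA1 against shRNA3, and 0.0274 (HSPA1B) for shRNA1 against shRNA2. A mean of at least 50 counts gave -0.0270 for DNAJB1 and -0.0261 for HSP90AB1 with shRNA1. BAG3 with shRNA2 was 0.0350 without a filter. HSPA1A and HSPA1B summed gave 0.16 for shRNA1 against shRNA2. With single libraries left out, BAG3 ranged from -0.22 to 0.0863 (shRNA1 against shRNA3) and -0.0278 to 0.0301 (shRNA2 against NC), and HSP90AB1 from -0.12 to 0.18 (shRNA1 against NC). For shRNA1 against shRNA2, HSPA1B ranged from -0.16 to 0.20, HSPD1 from -0.0604 to 0.31 and HSPE1 from -0.29 to 0.0057, and for shRNA2 against shRNA3 HSPD1 ranged from -0.0395 to 0.19. In the main fit of all 12 libraries none of these values had been called except DNAJB1 for shRNA3 against NC. The causes were not tested. Counting error was at most 6.20% of a value for the 10 genes. It was larger for genes near 0, such as HSPA6.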
